A study of Drosophila melanogaster with 52 samples.

Results

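The genes described here are 136 Drosophila melanogaster genes whose RNA was already measurable in the youngest wild-type embryos and was far more abundant at the onset of major zygotic transcription. A gene was taken if its CPM (the count scaled by the library total) averaged at least 10 over 2 libraries at 0.5 to 1 h, and if its CPM at 2.5 to 3 h was at least 3-fold higher, in the wild-type embryos of both the HIRA and the H3.3 experiment. Of the 16680 genes in the files, 6094 reached the level in both wild types and 138 also reached the gain. Genes whose names carry a prefix of histone, ribosomal protein or small or long noncoding RNA genes were left out, which removed CR41602 and CR42862 and left the 136. The noncoding RNA genes roX1 and Hsromega lack such a prefix in the files and stayed. Because these wild-type values chose the members, the wild-type gain and every comparison that uses those wild-type libraries is given below as a description without a test.

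The fly egg is loaded by its mother with RNA and protein that run the first nuclear cycles, while the genome of the embryo is almost silent. A few zygotic genes are transcribed first, in a minor wave, and a broad major wave follows when nuclear cycling pauses and the syncytial blastoderm is divided into cells. Many genes use both sources, so that their RNA in the embryo is the balance of stored message, its decay and new synthesis. Membrane, junction, signalling and cell shape proteins that are needed to build the first epithelium are well known among such genes.

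Embryos of 5 experiments were used, each with its own wild type, w1118, and each group had 2 biological replicates. Mislocalized dPCIF1 mutants carry a GFP-tagged dPCIF1 knock-in that the JabbaTrap nanobody fusion holds on lipid droplets outside the nucleus, and they were collected at 0.5 to 1 h and 1 to 1.5 h. M-Z+ HIRA mutants lacked maternal HIRA, the chaperone that deposits histone H3.3, and M-Z+ H3.3 mutants came from rare surviving mothers without H3.3A and H3.3B. Both were collected at 0.5 to 1 h, 1 to 1.5 h and 2.5 to 3 h. HIRA overexpression embryos received HIRA from a germline driver active in the mother, co-overexpression embryos received HIRA and dPCIF1 from it, and dPCIF1 S111A S115A embryos carried these serine to alanine changes in the endogenous gene. These 3 genotypes were collected at 0.5 to 1 h and 1 to 1.5 h. dPCIF1 is the product of CG11399, the fly homologue of a mammalian cap methyltransferase. By the study's description many HIRA mutant embryos are delayed or arrested in nuclear division at the latest stage, so that in this group less RNA per nucleus and fewer nuclei cannot be told apart. The same holds for every bulk embryo sample here.

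Libraries held between 15073545 and 31579940 counts, at which 3 counts correspond to 0.0950 to 0.199 CPM, and all 136 members passed the filter on low counts in all 5 experiments. The genes that were deleted or overexpressed followed the labels. Hira had 73.6 and 73.0 normalised CPM in HIRA mutants against 175 and 165 in wild type at 0.5 to 1 h, and 2360.0 and 2333 CPM with HIRA overexpression against 165 and 163 in wild type. With co-overexpression Hira had 2076 and 2097 CPM and CG11399, the dPCIF1 gene, 2650.0 and 2610.0 CPM, against 438 and 439 CPM for CG11399 in that wild type. The H3.3 genes His3.3A and His3.3B had 86.3 and 80.3 CPM and 252 and 246 CPM in H3.3 mutants, against 178 and 166 CPM and 682 and 708 CPM in wild type at 0.5 to 1 h. For the serine changes the level of RNA is no check, and CG11399 had 78.6 and 76.7 CPM in dPCIF1 S111A S115A embryos against 389 and 398 CPM in wild type at 0.5 to 1 h. The wild types of the dPCIF1 and the overexpression experiment at 1 to 1.5 h were the most alike of those compared at that stage, with a chi-square of 13.9 to 18.8 per degree of freedom between libraries, against 4.13 and 2.69 between their own replicates. Whether these wild-type embryos were shared is not given in the sources used here, so calls in these experiments are not treated as independent of each other.

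The label of maternal RNA was compared with a list of 12 genes taken as purely zygotic. Of the 12, the 8 that gained at least 3-fold and were not members were used, here and wherever zygotic markers are named. This choice used these data. In the HIRA wild type at 0.5 to 1 h the 12 summed to 471 and 545 normalised CPM, and the 8 to 40.4 and 39.9. These 8 were run, ftz, eve, sna, twi, bnk, Z600 and halo. slam, on the list too, gained 5.066-fold and 4.655-fold in the HIRA and H3.3 wild types and was left out as a member. Its 0.5 to 1 h level was 19.7% and 21.5% of its 2.5 to 3 h level, above all 8 markers. The split below therefore rests on leaving slam out, and with slam more members would lie at or below the highest marker. At 0.5 to 1 h the members stood at 1.28% to 33.1% of their 2.5 to 3 h level in the HIRA wild type (median 17.7%) and at 0.983% to 32.6% in the H3.3 wild type (median 19.0%), in plain CPM. The 8 markers stood at 1.29% to 6.57% and at 1.35% to 14.0%. Both upper ends belong to bnk, and the next highest were sna (2.80%) in the HIRA and halo (6.52%) in the H3.3 wild type. Without bnk fewer members would lie at or below the highest marker. Egfr (3.78%) and CadN (4.03%) would then lie above it in the HIRA wild type. By this measure 103 members lay above every zygotic marker in at least 1 of the wild types, and 33 did not. The 103 are called members above the zygotic markers below, although some, such as ft and Lac, lay above them in only 1 wild type. For these 33, among them ci, ptc, Ptr, Egfr, CadN, roX1, Inx3 and Sry-alpha, a maternal store and a few older embryos in the collection cannot be told apart. The measure does not settle this for the other 103 either, as the 8 markers are early zygotic genes. In normalised CPM, 8 markers of older embryonic tissues (Act57B, a member, among them) summed to 327 and 332 in the HIRA wild type at 0.5 to 1 h. In the H3.3 wild type they summed to 102.5 and 99.9. Cpr64Ab was at 0 in both wild types, and Lcp65Ab1 in the second. The percentage is the inverse of the gain that chose the members, so this split is a cut on the rule's own values. The 26 members with a gain of at least 20-fold are therefore all among the 33 by construction. In the 3 wild types at 0.5 to 1 h that the rule did not use, 117 members reached 10 CPM in all 3 and 131 reached 5 CPM. Act57B, a muscle actin, was the 1 member under 1 CPM, with a mean of 0.0987 CPM in the wild type of the dPCIF1 experiment. It is among the 103, as are sls and Ppn, with means of 1.64 and 3.94 CPM in that wild type.

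Per length, the most abundant members at 0.5 to 1 h were kuk, which encodes the nuclear envelope protein Kugelkern, with 378 TPM (a length-scaled level, averaged over the HIRA and H3.3 wild types), wech (227 TPM), Bacc (181 TPM), and the innexin Inx2 (149 TPM), with the cellularization gene slam next. These abundant members had moderate gains. kuk had 619 and 574 plain CPM at 0.5 to 1 h in the HIRA and the H3.3 wild type and was 4.05-fold and 3.66-fold higher at 2.5 to 3 h. The largest gains belonged to scarce transcripts. ci, the transcription factor of the Hedgehog pathway, was 78.4-fold and 102-fold higher at 2.5 to 3 h than at 0.5 to 1 h, where it had 15.9 and 12.6 CPM. Ptr, which encodes a Patched-related membrane protein, followed with gains of at least 57.6-fold, and l(3)neo38, bnb and CG13427 with at least 52.1-fold, 50.0-fold and 42.7-fold. Of all members, 26 gained at least 20-fold (median level 8.50 TPM at 0.5 to 1 h), 17 between 10-fold and 20-fold (7.22 TPM), 26 between 5-fold and 10-fold (17.2 TPM) and 67 between 3-fold and 5-fold (32.05 TPM).

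The limits of the group are not sharp. Just inside the fold limit lay Asph, with a smaller gain of 3.02-fold, and CG1104 with 3.04-fold, while crp (2.98-fold) and bdg (2.96-fold) lay just outside. CadN and msl-2 were just inside the level limit with 10.04 and 10.4 CPM, and ph-p and Dtg were just outside with 9.90 and 9.81 CPM.

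Together the members held a small share of each library before the major wave. In plain counts the share was 1.13% and 1.15% in mislocalized dPCIF1 mutants at 0.5 to 1 h, against 0.940% and 0.932% in wild type, and 2.86% in both mutant libraries at 1 to 1.5 h, against 1.24% and 1.26% in wild type. HIRA mutants held 1.20% and 1.23% at 1 to 1.5 h, against 1.80% and 1.79% in wild type. H3.3 mutants held 1.50% and 1.48% at that stage, against 1.33% and 1.34% in wild type. At 2.5 to 3 h, where wild-type values entered the rule, the share was 4.78% and 4.58% in HIRA mutants against 8.64% and 8.72% in wild type, and 4.11% and 4.07% in H3.3 mutants against 7.87% and 8.23% in wild type. HIRA overexpression gave 2.20% and 2.18% at 1 to 1.5 h, and co-overexpression gave 1.301% and 1.281%, against 1.2996% and 1.2817% in wild type. dPCIF1 S111A S115A embryos held 1.75% and 1.86%, against 1.37% and 1.32% in wild type. Replicate libraries lay close together, and at 1 to 1.5 h the groups overlapped only between co-overexpression and wild type.

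**Figure D1:**
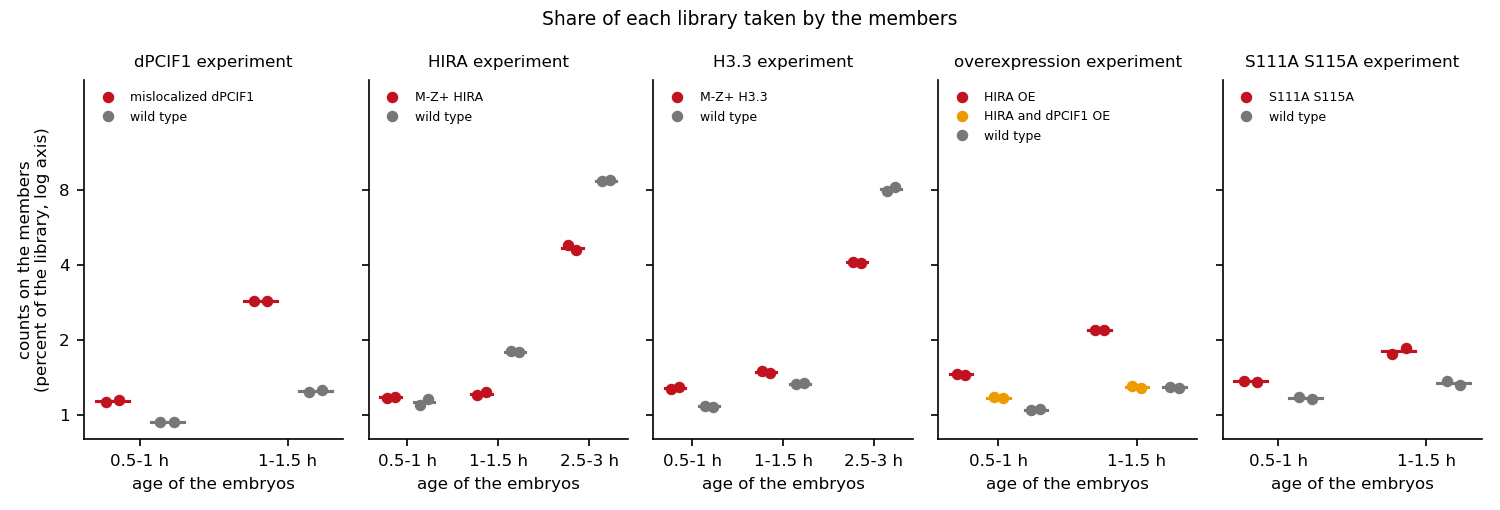
Share of library counts that fell on the 136 members (y axis, percent, log scale) in each library by stage (x axis), 1 panel per experiment, with a point for each library, a bar at the mean of 2 (OE for overexpression) and the mutant or overexpression group left of its wild type. At 1 to 1.5 h the mislocalized dPCIF1 mutants stand at 2.86% against 1.24% and 1.26% in wild type, and HIRA mutants at 1.20% and 1.23% against 1.80% and 1.79%.

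In mislocalized dPCIF1 mutants at 1 to 1.5 h, nearly all members leaned to higher levels than in wild type. A call was made throughout where the quasi-likelihood test of edgeR gave an adjusted p (Benjamini-Hochberg) under 0.05 and the log2 fold change was beyond 1 in either direction. By it 63 of 136 rose (46.3%) and 4 fell, beside 12.7% of all 8700 tested genes that rose and 14.5% that fell. The median log2 fold change of the members was 0.97, against -0.01 over all genes, and 131 members were above 0. The largest rises were in CG13427, with 304 and 312 normalised CPM in mutants against 20.2 and 19.7 CPM in wild type (log2 fold change 3.95, SE 0.052, adjusted p = 3.9e-19), in bnb (3.20) and in link (3.17). Among the 103 members above the zygotic markers 31 rose (30.1%, median 0.85), and among the other 33 all but 1 rose (median 2.34). The summed level of the 8 zygotic markers moved in the same direction, with 816 and 812 CPM in mutants against 85.9 and 86.5 CPM in wild type, and its part in the result was not tested. At 0.5 to 1 h the count was at the background, with 16 members higher (11.8%, beside 12.0% of all genes) and 3 lower (2.21%, beside 4.34%). Act57B (8.45) and sls (3.17), described below with the muscle gene Mhc, had the largest rises here, and CG13427 came next, with 24.1 and 27.1 CPM in mutants against 4.91 and 3.73 CPM in wild type. The 8 markers of older embryonic tissues, Act57B among them, summed to 89.3 and 93.4 CPM in mutants against 8.19 and 8.91 CPM in wild type at 0.5 to 1 h. At 1 to 1.5 h they summed to 128.5 and 127.7 CPM against 95.1 and 102 CPM. Lcp65Ab1 and Cpr64Ab were at 0 in wild type at both stages. The part of these markers in the result was not tested. The change between the stages was larger in mutants than in wild type for 119 members and smaller for 10 (interaction, adjusted p under 0.05), beside 26.0% and 40.3% of all genes.

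HIRA mutants showed the opposite at 1 to 1.5 h. No member rose and 49 fell (36.0%), beside 1.96% of all 10638 tested genes that rose and 21.2% that fell, with a median of -0.64 against -0.11 over all genes. In the edgeR fit 7 members were above 0 with an unadjusted p under 0.05 but none of them past the fold, and DESeq2 called 0 members higher. Of the 33 members like zygotic markers 29 fell (median -1.75). Of the other 103, 20 fell (19.4%, median -0.35), which is near the share of all genes. In this experiment the wild type stood apart from the other wild types of the same stage. The 8 zygotic markers summed to 191 to 196 CPM in HIRA mutants against 426 and 418 CPM in their wild type, while the wild types of the other 4 experiments had 85.9 to 177 CPM. The summed level of the 8 markers of older embryonic tissues (Lcp65Ab1 and Cpr64Ab at 0 in the mutants) was 8.42 and 12.1 CPM in HIRA mutants against 332 and 331 CPM in wild type. Act57B, itself a member, is 1 of these 8 here and wherever they are named, so its own level is part of the sum. The part of these differences between the collections in the result was not tested.

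In H3.3 mutants at 1 to 1.5 h few members were called. Here 7 members rose (5.15%, beside 12.3% of all 10644 genes) and 3 fell (2.21%, beside 1.87%), with a median of 0.03 against 0.01 over all genes. Those that rose were Act57B, sls, Msp300, wake, Hsp70Aa, Rfabg and Hsromega, and those that fell were Asph, Gli and LM408. The first 3 are muscle genes that followed the muscle myosin Mhc over the libraries, and without them 4 of 133 members rose (3.01%). Zygotic markers summed to 98.5 and 108 CPM in mutants against 112 and 118 CPM in wild type. Other marker lists lay far apart, with 485 and 552 CPM in mutants against 0.0709 and 0.208 CPM in wild type for 7 genes of follicle cells and eggshell (Cp36, Cp38, Vm26Aa and Vm34Ca at 0 in wild type), and 282 and 274 CPM against 69.8 and 71.3 CPM for the 8 genes of older embryonic tissues (Lcp65Ab1 and Cpr64Ab at 0 in both). Their part in the result was not tested. ci was 52.7 and 49.6 CPM in mutants against 56.7 and 56.2 CPM in wild type (log2 fold change -0.14, SE 0.073, adjusted p = 0.13).

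HIRA overexpression raised members already at 0.5 to 1 h. There 34 rose (25.0%) and 5 fell (3.68%), beside 9.66% and 5.19% of all 8974 genes, with a median of 0.41 against -0.02. At 1 to 1.5 h 42 rose (30.9%) and 1 fell (0.735%), beside 17.3% and 6.96% of all genes, with a median of 0.54. Of the 33 members like zygotic markers 28 rose at 0.5 to 1 h and 30 at 1 to 1.5 h. Of the other 103, 6 rose at 0.5 to 1 h (5.83%) and 12 at 1 to 1.5 h (11.7%), both below the share of all genes, although 89 and 94 of the 103 were above 0. Zygotic markers summed to 429 and 430 CPM with HIRA overexpression against 92.8 and 89.8 CPM in wild type at 1 to 1.5 h. The 8 markers of older embryonic tissues summed to 245 and 238 CPM against 63.1 and 63.6 CPM in wild type at that stage, and to 47.7 and 45.1 CPM against 102 and 102 CPM at 0.5 to 1 h. The part of both lists in the result was not tested.

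With co-overexpression of dPCIF1 members rose at 0.5 to 1 h, and few did at 1 to 1.5 h. It raised 25 members at 0.5 to 1 h (18.4%, beside 6.95% of all genes) and lowered 5 (3.68%, beside 5.94%). Of the 25, 21 were among the 33 members like zygotic markers, and 4 of the other 103 rose (3.88%), under the share of all genes. At 1 to 1.5 h it raised 4 (2.94%, beside 4.96%) and lowered 12 (8.82%, beside 7.02%), with a median of 0.01. Set directly against HIRA overexpression at 1 to 1.5 h, no member rose and 39 fell with co-overexpression (28.7%, beside 4.59% of all genes higher and 17.0% lower), with a median of -0.55 against 0.06 over all genes. There 6 members were above 0 at an unadjusted p under 0.05 in edgeR, none past the fold, and DESeq2 called 0 higher. Of the 103 members above the zygotic markers 17 fell (16.5%), near the share of all genes, and 22 of the other 33 fell. At 0.5 to 1 h 1 member was higher (0.735%, beside 1.73%) and 12 were lower (8.82%, beside 5.48%). The stage change was smaller than in wild type for 66 members with co-overexpression and larger for 5, beside 11.8% and 4.17% of all genes. Zygotic markers summed to 215 and 212 CPM with co-overexpression at 1 to 1.5 h, against 429 and 430 CPM with HIRA alone. The 8 markers of older embryonic tissues (Cpr64Ab at 0 with co-overexpression) summed to 24.93 and 24.93 CPM, against 245 and 238 CPM with HIRA alone. The 7 genes of follicle cells and eggshell summed to 40.53 and 40.35 CPM, against 3.745 and 3.643 CPM with HIRA alone. The part of these lists in the result was not tested.

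In dPCIF1 S111A S115A embryos most members leaned to higher levels. At 1 to 1.5 h 23 members rose (16.9%) and 1 fell (0.735%), beside 9.24% and 5.34% of all 8746 genes, with a median of 0.42, and 120 members were above 0. The count fell to 14 members (10.3%) without replicate 2 of the mutant at that stage. Of the 103 members above the zygotic markers 10 rose (9.71%), which is near the background. At 0.5 to 1 h 8 rose (5.88%, beside 4.37%) and 3 fell (2.21%, beside 2.08%). Zygotic markers summed to 271 and 340.0 CPM in the mutants at 1 to 1.5 h against 177 and 158 CPM in wild type. The 7 genes of follicle cells and eggshell summed to 1.66 and 2.59 CPM against 126 and 129 CPM in wild type at that stage. At 0.5 to 1 h they summed to 55.9 and 55.2 CPM against 24.0 and 27.2 CPM. The part of both lists in the result was not tested.

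Calls in different experiments overlapped, and most of the shared members were like zygotic markers. Of the 63 members that rose in mislocalized dPCIF1 mutants at 1 to 1.5 h, 33 fell in HIRA mutants (52.4% of the 63 and 67.3% of the 49). All 23 members that rose in dPCIF1 S111A S115A embryos at 1 to 1.5 h fell in HIRA mutants (46.9% of the 49), and 16 of them rose in mislocalized mutants (69.6% of the 23 and 25.4% of the 63). Of the shared members 28 of 33, 13 of 23 and 13 of 16 were among the 33 like zygotic markers. Over all genes tested in both, 53.01% of those that rose in mislocalized mutants fell in HIRA mutants (39.6% of those that fell). Of all genes that rose in S111A S115A embryos, 58.8% fell in HIRA mutants (32.2% of those that fell), and 47.2% rose in mislocalized mutants (38.9% of those that rose there). The 52.4% is thus near the share of all genes, and the 25.4% is below it. These pairs share no library. In all, 4 members rose in 6 of the 10 mutant or overexpression comparisons tested, namely btsz, Inx3, Sry-alpha and CG14317.

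Between 0.5 to 1 h and 1 to 1.5 h, members rose above the share of all genes in 2 of the 3 wild types that the rule did not use, mostly those like zygotic markers. In the wild type of the dPCIF1 experiment 38 rose (27.9%) and 0 fell, beside 14.0% and 0.667% of all genes, while in mislocalized mutants 74 rose (54.4%) and 2 fell, beside 13.2% and 11.6%. In HIRA mutants 5 rose (3.68%) and 10 fell (7.35%), beside 2.06% and 2.86%, with a median change of -0.03. Leaving out replicate 2 of these mutants at 0.5 to 1 h cut the count that fell to 5 (3.68%), and leaving out replicate 1 at 1 to 1.5 h cut it to 6 (4.41%). In H3.3 mutants 15 rose (11.03%) and 0 fell, beside 13.4% and 0.432%. At an unadjusted p under 0.05 in edgeR, 10 members were lower in that wild type and 19 in H3.3 mutants, none past the fold, and DESeq2 called 0 lower in either. In the overexpression experiment 22 rose with HIRA (16.2%, beside 13.4%), 1 with co-overexpression (0.735%, beside 1.88%, while 3 fell, 2.21%, beside 1.75%) and 29 in wild type (21.3%, beside 6.23%). In the remaining experiment 33 rose in dPCIF1 S111A S115A embryos (24.3%, beside 11.5%) and 3 in wild type (2.21%, beside 6.57%). This wild type started higher, as its 26 members of at least 20-fold gain summed to 1342 and 1348 CPM at 0.5 to 1 h. The same sum was 510 and 497 CPM in the dPCIF1 wild type and 635 and 625 CPM in the overexpression wild type. The part of this start in the stage changes was not tested. Of the 103 members above the zygotic markers, 12 rose in the wild type of the dPCIF1 experiment (11.7%), 6 in that of the overexpression experiment (5.83%) and 2 in the third (1.94%), all under the share of all genes. Of the other 33, 26, 23 and 1 rose. In mislocalized mutants 41 of the 103 rose (39.8%) and all 33 others, and in S111A S115A embryos 18 of the 103 (17.5%) and 15 of the 33. With HIRA overexpression 12 of the 103 rose (11.7%) and 10 of the 33, and in H3.3 mutants 10 of the 103 (9.71%) and 5 of the 33.

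By 2.5 to 3 h most members had risen in both maternal mutants, with gains that lay below those of wild type. In HIRA mutants 112 members rose over their own 0.5 to 1 h level (82.4%, beside 27.1% of all genes) and 0 fell, all 136 were above 0 and the median log2 change was 1.52. edgeR had 0 members lower at an unadjusted p under 0.05, and DESeq2 called 0 lower. In H3.3 mutants 80 rose (58.8%, beside 34.4%) and 1 fell, Hsp70Aa, with a median of 1.13. Of the 80, 78 also rose in HIRA mutants (97.5% of the 80 and 69.6% of the 112). Over all genes tested in both, these shares were 71.0% and 89.4%. The median gain was 2.88-fold in HIRA mutants against 5.76-fold in their wild type, and 2.19-fold in H3.3 mutants against 5.31-fold in theirs. The gain lay below that of wild type for 123 members in HIRA mutants and for 131 in H3.3 mutants, and 64 and 51 members kept a gain of 3-fold or more. As the wild-type gains chose the members, these differences are a description.

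The level at 2.5 to 3 h was described in the same way. Against wild type, the median log2 fold change of the members was -0.91 in HIRA mutants, against -0.28 over all genes. In H3.3 mutants it was -1.38, against -0.06 over all genes. The wild-type libraries used here chose the members by their high values at this stage, so no calls are counted. Lists chosen by the same rule from the wild type of the other experiment alone gave -0.89 over 154 genes for HIRA mutants and -1.26 over 243 genes for H3.3 mutants. At 0.5 to 1 h the medians against wild type were 0.11 in HIRA mutants and 0.20 in H3.3 mutants.

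**Figure D2:**
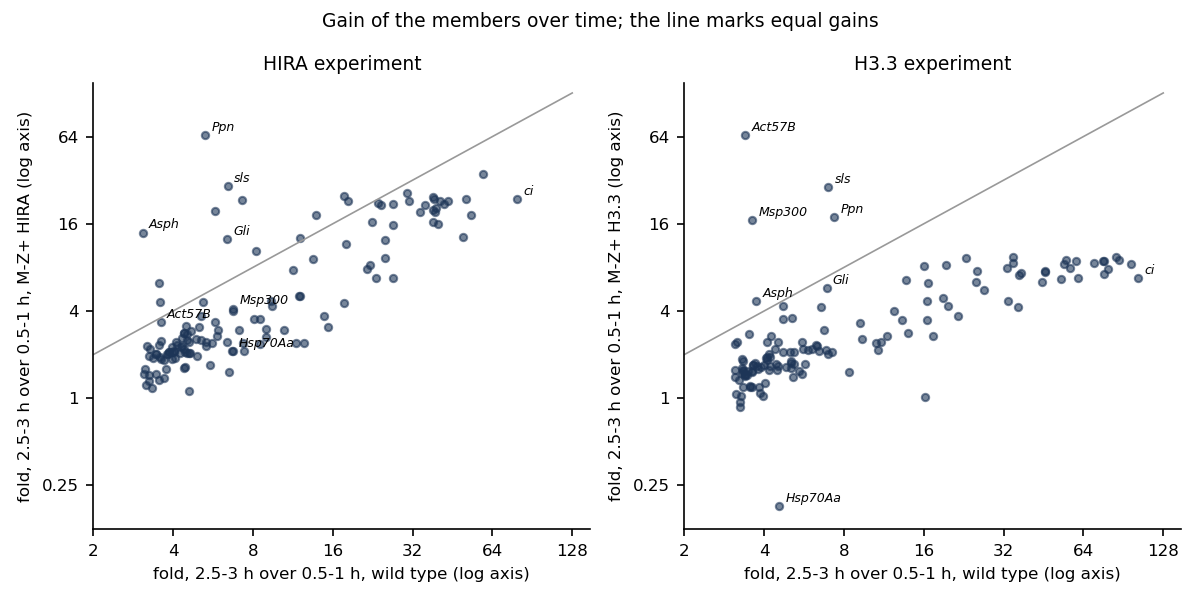
Fold gain of each member from 0.5 to 1 h to 2.5 to 3 h in M-Z+ HIRA (left panel) and M-Z+ H3.3 mutants (right panel) on the y axis, against the gain in the matching wild type on the x axis, both on log scales, with the line of equal gain. Most points lie below the line, 123 of 136 in HIRA mutants and 131 of 136 in H3.3 mutants. Ppn in HIRA mutants and Act57B in H3.3 mutants lie farthest above it.

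Members with a large wild-type gain had the larger changes in the groups that changed, as the classes of gain show. These classes were set by the rule's wild types, and the split by zygotic markers is a cut on the same gains. The 26 members of at least 20-fold had median log2 fold changes of 2.50 in mislocalized dPCIF1 mutants, -1.72 in HIRA mutants, 1.47 with HIRA overexpression, 0.10 with co-overexpression and 0.96 in dPCIF1 S111A S115A embryos at 1 to 1.5 h. The 67 members of 3-fold to 5-fold had 0.76, -0.27 and 0.34 in the first 3 of these groups and 0.22 in S111A S115A embryos. Summed over the 26, the level was 7324 and 7416 CPM in mislocalized mutants at 1 to 1.5 h against 1313 and 1350.0 CPM in wild type, and 1109 and 1183 CPM in HIRA mutants against 3259 and 3227 CPM in wild type. With HIRA overexpression the sum was 2310.0 and 2288 CPM at 0.5 to 1 h, with co-overexpression 1488 and 1461 CPM, and in wild type 635 and 625 CPM. At 2.5 to 3 h the 26 had a median gain of 21.1-fold in HIRA mutants against 38.2-fold in wild type. In H3.3 mutants the median gain of the 26 was 7.84-fold against 54.6-fold, within a range of 4.69-fold to 9.48-fold.

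**Figure D3:**
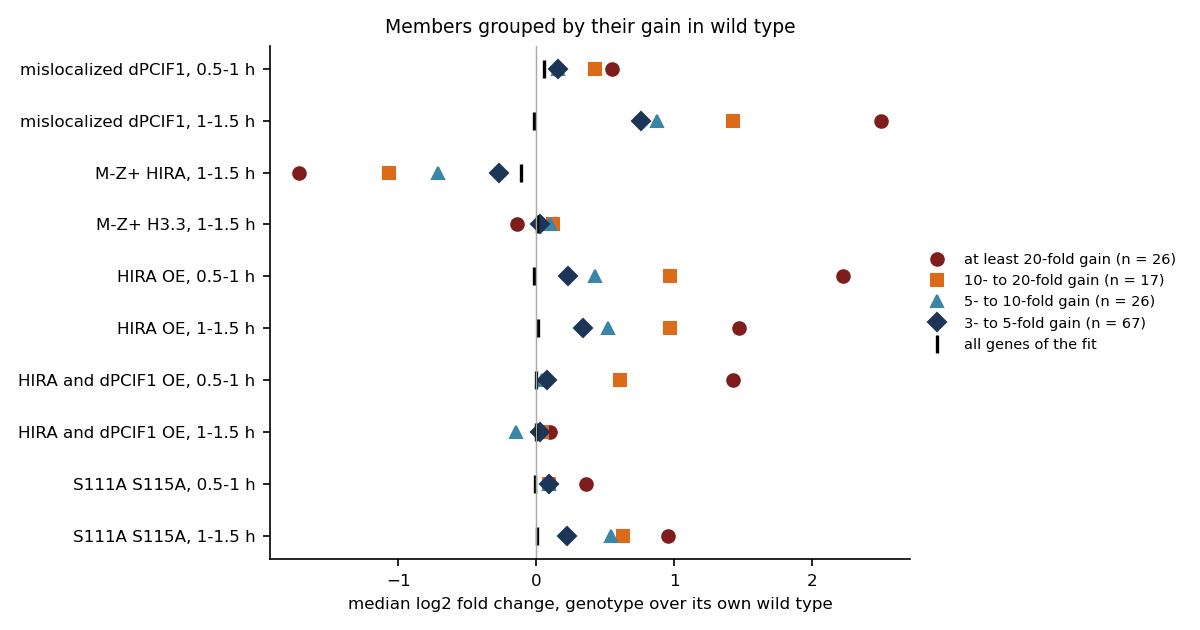
Median log2 fold change over wild type (x axis) of the members in 4 classes of wild-type gain (26, 17, 26 and 67 members, coloured symbols) and of all tested genes (black bars), for each tested group and stage (rows, OE for overexpression). The class of at least 20-fold reaches 2.50 in mislocalized dPCIF1 mutants and -1.72 in HIRA mutants at 1 to 1.5 h, and the class of 3-fold to 5-fold stays between -0.27 and 0.76 in these groups.

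Signalling genes formed the largest named role, with 20 members. In mislocalized mutants at 1 to 1.5 h 13 of the 20 rose (median 1.21), in HIRA mutants 8 fell (-0.90), with HIRA overexpression 9 rose (0.75), with co-overexpression 1 fell, and in S111A S115A embryos 6 rose (0.55). The shares of all genes beside which these and the following roles stand are 12.7% higher in mislocalized mutants, 21.2% lower in HIRA mutants, 17.3% higher with HIRA overexpression, 7.02% lower with co-overexpression and 9.24% higher in S111A S115A embryos. The Hedgehog pathway shows how widely members of one pathway differed. Its receptor gene ptc (chromosome 2R, 8649649 to 8665223, plus strand, Release 6) had 172 and 162 CPM in mislocalized dPCIF1 mutants at 1 to 1.5 h, against 26.7 and 27.1 CPM in wild type (log2 fold change 2.63, SE 0.045, adjusted p = 6.2e-18). In HIRA mutants ptc had 27.3 and 29.1 CPM against 81.8 and 76.0 CPM in wild type (-1.48, SE 0.070, adjusted p = 5.5e-08). With HIRA overexpression it had 96.5 and 94.9 CPM and with co-overexpression 43.8 and 46.1 CPM, against 32.1 and 29.0 CPM in wild type. Every library of HIRA overexpression and of mislocalized mutants lay above its wild type, and every library of HIRA mutants below it. At 2.5 to 3 h ptc had 392 and 401 CPM in HIRA mutants against 1063 and 1066 CPM in wild type, and 154 and 149 CPM in H3.3 mutants against 976 and 981 CPM in wild type. ptc rose over the 0.5 to 1 h level by a log2 change of 4.53 in HIRA mutants and of 3.17 in H3.3 mutants.

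The signal transducer of the same pathway, smo, was already plentiful and moved little. At 1 to 1.5 h smo had 214 and 212 CPM in mislocalized mutants against 171 and 166 CPM in wild type (log2 fold change 0.34, not past the call), and 154 and 172 CPM in HIRA mutants against 196 and 196 CPM in wild type (-0.27). It rose between 0.5 to 1 h and 2.5 to 3 h in HIRA mutants (1.06), and in H3.3 mutants its change was 0.54. Ptr, the Patched-related gene (chromosome 2R, 6181748 to 6196320, minus strand), had 251 and 246 CPM in mislocalized mutants at 1 to 1.5 h against 30.7 and 32.8 CPM in wild type, and it rose in dPCIF1 S111A S115A embryos at 0.5 to 1 h, with 106 and 110.0 CPM against 38.2 and 37.5 CPM in wild type.

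In the EGF receptor pathway, the receptor gene Egfr (chromosome 2R, 21522420 to 21559977, plus strand) had 190.4 and 183 CPM in mislocalized mutants at 1 to 1.5 h against 38.2 and 38.7 CPM in wild type, and 23.5 and 27.4 CPM in HIRA mutants against 94.8 and 96.1 CPM in wild type. It rose with HIRA overexpression (log2 fold change 1.54, SE 0.044, adjusted p = 4.4e-16), while with co-overexpression its 46.2 and 42.3 CPM overlapped the 46.6 and 44.5 CPM of wild type. The ligand gene spi moved far less, with 63.7 and 70.3 CPM in mislocalized mutants against 37.6 and 39.1 CPM in wild type at 1 to 1.5 h (0.80, not past the call). pnt, the ETS transcription factor gene of the pathway, rose in mislocalized mutants, with 51.4 and 51.6 CPM against 22.1 and 22.8 CPM in wild type, and fell in HIRA mutants, with 12.4 and 14.96 CPM against 34.5 and 35.9 CPM in wild type.

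Among genes of Notch signalling, bib and Gp150 had large wild-type gains and moved widely, while Dl and neur were plentiful from the start. bib, a neurogenic gene, rose in mislocalized mutants (2.52) and fell in HIRA mutants (-1.66) at 1 to 1.5 h, and Gp150, a membrane glycoprotein gene, likewise (1.88 and -2.20). Dl, the Notch ligand gene, had 394 and 395 CPM in mislocalized mutants at 1 to 1.5 h against 251 and 251 CPM in wild type (log2 fold change 0.65), and 159 and 210.2 CPM in HIRA mutants against 331 and 318 CPM in wild type (-0.81), neither past the call. neur, whose product drives the endocytosis of Delta, rose in mislocalized mutants, with 243 and 247 CPM against 120.2 and 123 CPM in wild type (1.01, SE 0.037, adjusted p = 8e-14). In both HIRA and H3.3 mutants neur rose by 2.5 to 3 h (1.81 and 1.07). ft, the atypical cadherin gene of planar polarity and growth control, is in the signalling group because its product acts on the Hippo pathway. With HIRA overexpression at 0.5 to 1 h ft had 96.5 and 97.1 CPM and with co-overexpression 37.5 and 38.3 CPM, against 14.9 and 15.02 CPM in wild type. At 1 to 1.5 h ft had 37.4 and 40.2 CPM with co-overexpression against 77.1 and 79.7 CPM in wild type, so that it rose at the first stage and fell at the second.

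Of the 12 transcription factor and cofactor genes, 8 rose in mislocalized mutants at 1 to 1.5 h (median 1.13), 6 fell in HIRA mutants (-1.11), 3 rose with HIRA overexpression and 2 rose in S111A S115A embryos. ci (chromosome 4, 47710 to 57041, minus strand) had 276 and 287 CPM in mislocalized mutants at 1 to 1.5 h against 40.4 and 47.5 CPM in wild type (log2 fold change 2.68, SE 0.053, adjusted p = 2.9e-17). In HIRA mutants ci had 4.55 and 8.50 CPM against 99.5 and 101 CPM in wild type (-3.89, SE 0.367, adjusted p = 1.1e-05). The HIRA mutant libraries thus lay below their own 0.5 to 1 h values of 18.9 and 18.4 CPM. At 0.5 to 1 h ci had 89.2 and 88.6 CPM with HIRA overexpression and 36.8 and 31.6 CPM with co-overexpression, against 12.0 and 11.7 CPM in wild type. emc, which encodes a helix-loop-helix inhibitor, fell in HIRA mutants at 1 to 1.5 h, with 21.9 and 33.3 CPM against 75.2 and 72.8 CPM in wild type (-1.41, SE 0.221, adjusted p = 0.0004). In mislocalized mutants emc had 104 and 105 CPM against 53.6 and 53.8 CPM in wild type (0.96, not past the call).

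Cell surface adhesion and guidance genes numbered 14. Of these 8 rose in mislocalized mutants at 1 to 1.5 h (median 1.20), 7 fell in HIRA mutants (-1.21), 6 rose with HIRA overexpression (0.51) and 3 rose in S111A S115A embryos (0.54). CadN, the N-cadherin gene, had 103 and 110.5 CPM in mislocalized mutants against 31.0 and 31.4 CPM in wild type, and 3.28 and 5.22 CPM in HIRA mutants against 44.8 and 43.1 CPM in wild type (log2 fold change -3.32, SE 0.186, adjusted p = 2e-07). The E-cadherin gene shg differed from it in both level and size of change. shg had 726 and 708 CPM in mislocalized mutants at 1 to 1.5 h against 389 and 405 CPM in wild type (0.85, not past the call), and 442 and 467 CPM in HIRA mutants against 504 and 507 CPM in wild type (-0.15). Nrt, which encodes the adhesion protein Neurotactin, had 797 and 809 CPM in mislocalized mutants against 162 and 167 CPM in wild type (2.29, SE 0.034, adjusted p = 1.1e-18). lea, the gene of the Slit receptor Robo2, had 121 and 112 CPM with HIRA overexpression at 0.5 to 1 h and 62.0 and 58.6 CPM with co-overexpression, against 17.1 and 16.9 CPM in wild type.

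The 15 genes of epithelial polarity, cell cortex and cellularization include the most abundant members, and 7 rose in mislocalized mutants at 1 to 1.5 h (median 1.00), while 2 fell in HIRA mutants (-0.37), under the 21.2% of all genes. slam (chromosome 2L, 6372388 to 6377284, plus strand), which is needed for the cellularization furrow, had 1332 and 1276 CPM in mislocalized mutants against 386 and 393 CPM in wild type (log2 fold change 1.74, SE 0.031, adjusted p = 1e-17). In dPCIF1 S111A S115A embryos slam rose at 0.5 to 1 h, with 725 and 692 CPM against 355 and 339 CPM in wild type. With HIRA overexpression it had 834 and 847 CPM at 1 to 1.5 h and with co-overexpression 561 and 569 CPM, against 369 and 378 CPM in wild type, and only the first passed the call. In HIRA mutants slam had 565 and 554 CPM at 1 to 1.5 h against 754 and 776 CPM in wild type (-0.45), and it rose in both maternal mutants by 2.5 to 3 h (2.21 and 2.12). Its level at 2.5 to 3 h was 1589 and 1699 CPM in HIRA mutants against 1411 and 1487 CPM in wild type, and 1770.0 and 1743 CPM in H3.3 mutants against 1926 and 1809 CPM in wild type.

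Sry-alpha, which acts on actin during cellularization, rose in 6 of the 10 comparisons. It had 54.5 and 55.0 CPM in mislocalized mutants at 0.5 to 1 h against 23.0 and 24.6 CPM in wild type, and 312 and 291 CPM at 1 to 1.5 h against 39.0 and 41.6 CPM in wild type. In dPCIF1 S111A S115A embryos it had 109 and 112 CPM at 0.5 to 1 h against 26.1 and 27.7 CPM in wild type (log2 fold change 2.04, SE 0.10, adjusted p = 5.4e-09). With co-overexpression at 1 to 1.5 h Sry-alpha was still raised, with 101 and 108 CPM against 41.3 and 45.2 CPM in wild type, and so was btsz, a synaptotagmin-like protein gene, with 161 and 165 CPM against 64.4 and 64.4 CPM in wild type. These, with CG14317 and LM408, were the 4 members that rose there.

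The polarity genes crb and sdt, whose proteins bind each other at the apical membrane, differed. crb had 417 and 407 CPM in mislocalized mutants at 1 to 1.5 h against 343 and 333 CPM in wild type (log2 fold change 0.28, not past the call), and its change from 0.5 to 1 h to 2.5 to 3 h was 0.89 in HIRA mutants and 0.25 in H3.3 mutants, neither past the call. sdt had 114 and 113 CPM in mislocalized mutants against 42.9 and 40.3 CPM in wild type, and its stage change was 2.18 in HIRA mutants and 2.30 in H3.3 mutants. zip, the myosin II heavy chain gene, had 501 and 496 CPM in mislocalized mutants against 267 and 269 CPM in wild type (0.90), and kuk had 1176 and 1191 CPM against 595 and 610 CPM in wild type (0.97), both just under the call although the libraries did not overlap.

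**Figure D4:**
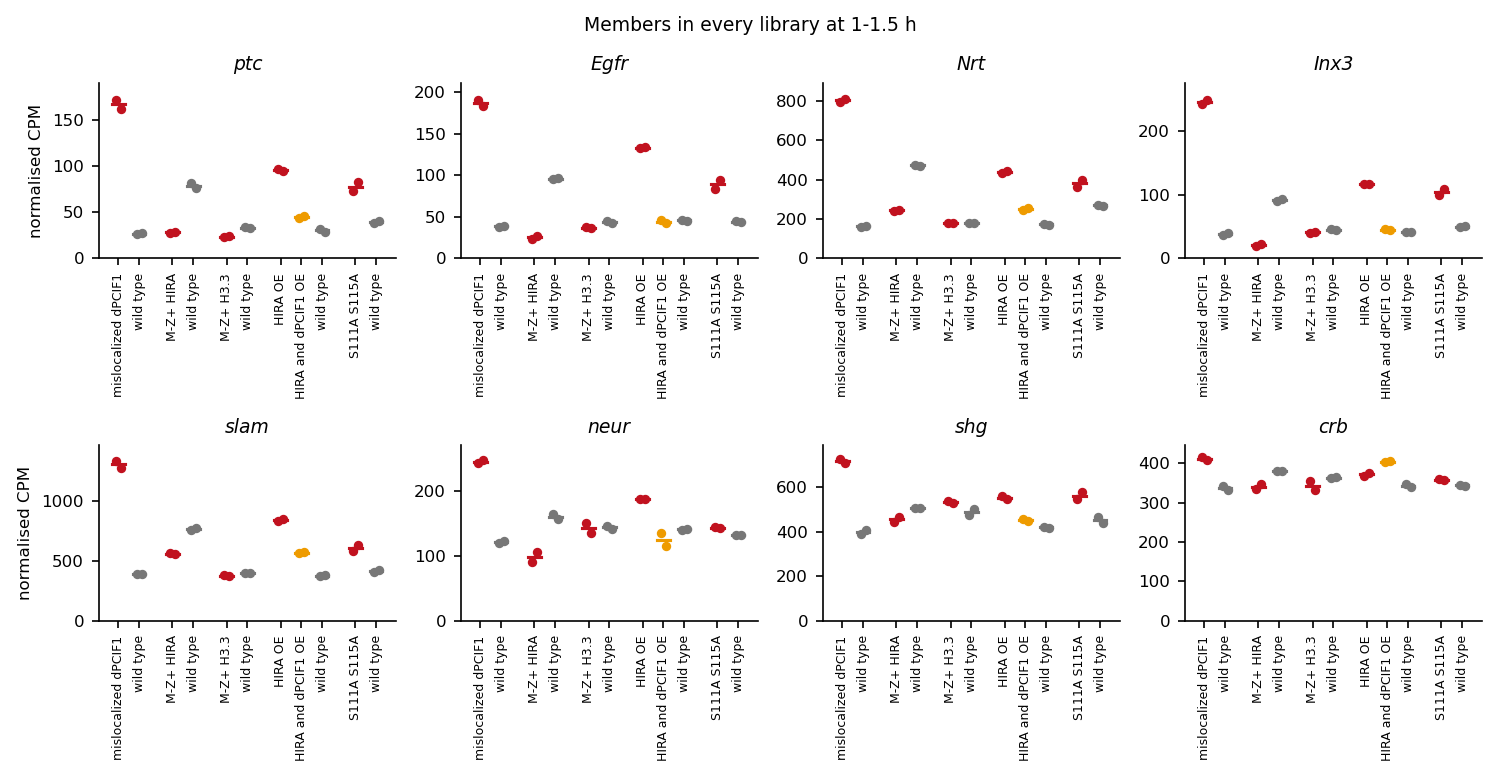
Normalised CPM (y axis, linear from 0) of 8 members at 1 to 1.5 h in each mutant or overexpression (OE) group and its wild type (x axis), with a point for each library and a bar at the mean of 2. ptc and Egfr stand high in mislocalized dPCIF1 mutants (172 and 162 CPM, and 190.4 and 183 CPM) and below wild type in HIRA mutants, while crb has 417 and 407 CPM in mislocalized mutants against 343 and 333 CPM in wild type.

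Gap junction channels were represented by the innexin genes Inx2, Inx3 and ogre, the last named after its values were seen. Inx3 (chromosome 3R, 28853606 to 28859497, minus strand) had 242 and 249 CPM in mislocalized mutants at 1 to 1.5 h against 37.5 and 40.5 CPM in wild type (log2 fold change 2.65, SE 0.042, adjusted p = 2.7e-18). In HIRA mutants Inx3 had 20.2 and 22.5 CPM against 90.1 and 93.8 CPM in wild type, with HIRA overexpression 117 and 117 CPM and with co-overexpression 45.8 and 44.8 CPM against 41.05 and 41.9 CPM in wild type. In S111A S115A embryos Inx3 had 99.4 and 110 CPM against 48.9 and 50.3 CPM in wild type (1.07, SE 0.061, adjusted p = 1.6e-08). Inx2, with 470.5 and 465 CPM in mislocalized mutants against 249 and 266 CPM in wild type, had 0.86 and did not pass the call. ogre rose in mislocalized mutants (1.38) and fell in HIRA mutants (-1.75).

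The 5 extracellular matrix genes, the laminin subunit genes LanA, LanB1 and LanB2, papilin (Ppn) and dumpy (dp), changed in several groups. Their r with Mhc, on the measure given for the muscle genes below, was 0.76 for Ppn, 0.63 for dp, 0.61 for LanA, 0.52 for LanB2 and 0.50 for LanB1, ranks 4 to 12 of the 136. In HIRA mutants at 1 to 1.5 h all 5 fell (median -3.42), with co-overexpression all 5 fell (-1.89), in S111A S115A embryos 4 rose (1.91), and in mislocalized mutants 1 rose and 1 fell (0.25). LanA (chromosome 3L, 6203831 to 6218022, minus strand) had 3.60 and 3.49 CPM in HIRA mutants against 38.2 and 37.5 CPM in wild type (log2 fold change -3.42, SE 0.073, adjusted p = 1.7e-10). With HIRA overexpression it had 259.9 and 262 CPM and with co-overexpression 20.7 and 21.4 CPM, against 112 and 112 CPM in wild type. In S111A S115A embryos LanA had 110.9 and 139 CPM against 14.6 and 13.01 CPM in wild type (3.18, SE 0.106, adjusted p = 1.1e-10). Wild-type levels of LanA at 1 to 1.5 h thus ran between 13.01 and 121 CPM over the 5 experiments. Ppn ran between 2.19 and 37.8 CPM in the same wild types, and had 35.5 and 47.0 CPM in S111A S115A embryos against 2.67 and 2.19 CPM in wild type. The markers of older embryonic tissues moved in the same direction, with a sum of 139 and 182 CPM in S111A S115A embryos against 54.4 and 50.3 CPM in wild type, and of 24.9 and 24.9 CPM with co-overexpression against 63.1 and 63.6 CPM in wild type. Of the 8, Cpr64Ab was at 0 with co-overexpression, and Lcp65Ab1 in S111A S115A embryos. Their part in the laminin values was not tested.

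Dosage compensation, which raises transcription of the male X chromosome, was represented by the noncoding RNA gene roX1, named after its values were seen, and by msl-2, which encodes the protein that limits the complex to males. roX1 (X chromosome, 3857230 to 3862697, minus strand, overlapping the member ec) had 398 and 430 CPM in mislocalized mutants at 1 to 1.5 h against 66.1 and 70.4 CPM in wild type. In HIRA mutants roX1 had 43.4 and 60.4 CPM against 230.2 and 222 CPM in wild type (log2 fold change -2.12, SE 0.195, adjusted p = 8.8e-06). With HIRA overexpression it had 308 and 316 CPM and with co-overexpression 105 and 98.8 CPM, against 98.5 and 93.7 CPM in wild type. msl-2 (chromosome 2L, 3462218 to 3466112, minus strand) had 41.1 and 41.1 CPM in mislocalized mutants against 10.5 and 11.2 CPM in wild type, and 11.2 and 12.8 CPM in HIRA mutants against 29.5 and 29.3 CPM in wild type.

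RNA-binding and RNA-processing genes, 14 members, had small changes. Of these 4 rose in mislocalized mutants at 1 to 1.5 h (median 0.71), the medians in HIRA mutants and S111A S115A embryos were -0.25 and 0.13 with no call, and 1 rose with HIRA overexpression (0.35). In HIRA mutants 11 of the 14 rose between 0.5 to 1 h and 2.5 to 3 h (1.11), beside 27.1% of all genes, and 5 of 14 in H3.3 mutants (0.90), near the 34.4% of all genes. TBPH, the TDP-43 homologue, named after its values were seen, had 57.4 and 54.4 CPM in mislocalized mutants against 46.7 and 46.0 CPM in wild type (0.27), and its stage change was 0.66 in HIRA mutants and 0.29 in H3.3 mutants, none past the call. Of the 4 autophagy genes (Atg101, Atg17, Atg18a and bchs) Atg101 rose in mislocalized mutants (1.24).

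Asph and Gli fell in several mutants. Gli, which encodes the cell junction protein Gliotactin, had 4.36 and 4.70 CPM in mislocalized mutants at 0.5 to 1 h against 24.8 and 26.0 CPM in wild type (log2 fold change -2.49, SE 0.086, adjusted p = 1.9e-13). Asph, which encodes a hydroxylase of aspartate residues, had 5.97 and 5.59 CPM in the same comparison against 30.5 and 29.5 CPM in wild type, 5.98 and 5.25 CPM in HIRA mutants at 1 to 1.5 h against 55.1 and 55.0 CPM in wild type, 8.24 and 9.55 CPM in H3.3 mutants against 41.9 and 42.0 CPM in wild type, and 11.1 and 12.4 CPM in S111A S115A embryos at 0.5 to 1 h against 47.6 and 47.3 CPM in wild type. With HIRA overexpression at 0.5 to 1 h Asph had 36.6 and 35.3 CPM against 36.3 and 35.6 CPM in wild type, and the libraries overlapped.

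Hsp70Aa, a heat shock gene, varied between replicates. It had 16.6 and 0 CPM in the 2 libraries of HIRA overexpression at 1 to 1.5 h, and 37.4 and 0.0950 CPM in the wild type of the S111A S115A experiment. Its near-identical copies can trade reads in the counting, so its values are uncertain. Hsromega, a noncoding RNA gene of the heat shock response, had close replicates and differed between groups. It had 70.5 and 71.3 CPM in S111A S115A embryos at 0.5 to 1 h against 15.5 and 13.7 CPM in wild type, and 5.93 and 7.05 CPM in HIRA mutants at 1 to 1.5 h against 100.5 and 93.0 CPM in wild type.

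Act57B, the titin-like gene sls and the nesprin gene Msp300 followed Mhc, the muscle myosin heavy chain gene, which is not a member. Over the 40 libraries at the 2 earlier stages that the rule did not use, Pearson's r of log2 CPM with Mhc was 0.96, 0.92 and 0.84, a description across libraries that share wild types and stages. Act57B had 36.8 and 39.3 CPM in mislocalized mutants at 0.5 to 1 h against 0.132 and 0.0803 CPM in wild type, and 3.13 and 2.76 CPM at 1 to 1.5 h against 30.2 and 34.2 CPM in wild type. In the same libraries Mhc had 28.6 and 29.1 CPM in mutants against 0.833 and 1.16 CPM in wild type, and 4.04 and 3.69 CPM at 1 to 1.5 h against 29.9 and 33.4 CPM in wild type. In HIRA mutants Act57B stayed at 0.159 and 0.104 CPM at 1 to 1.5 h and at 0.414 and 0.472 CPM at 2.5 to 3 h, against 134 and 131 CPM and 554 and 572 CPM in wild type. In H3.3 mutants it was higher than in wild type at 1 to 1.5 h, with 115.2 and 119 CPM against 17.6 and 19.8 CPM. A level of muscle RNA in embryos this young varied with the collection, wild types included, and whether it came from older embryos in the collections was not tested.

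**Figure D5:**
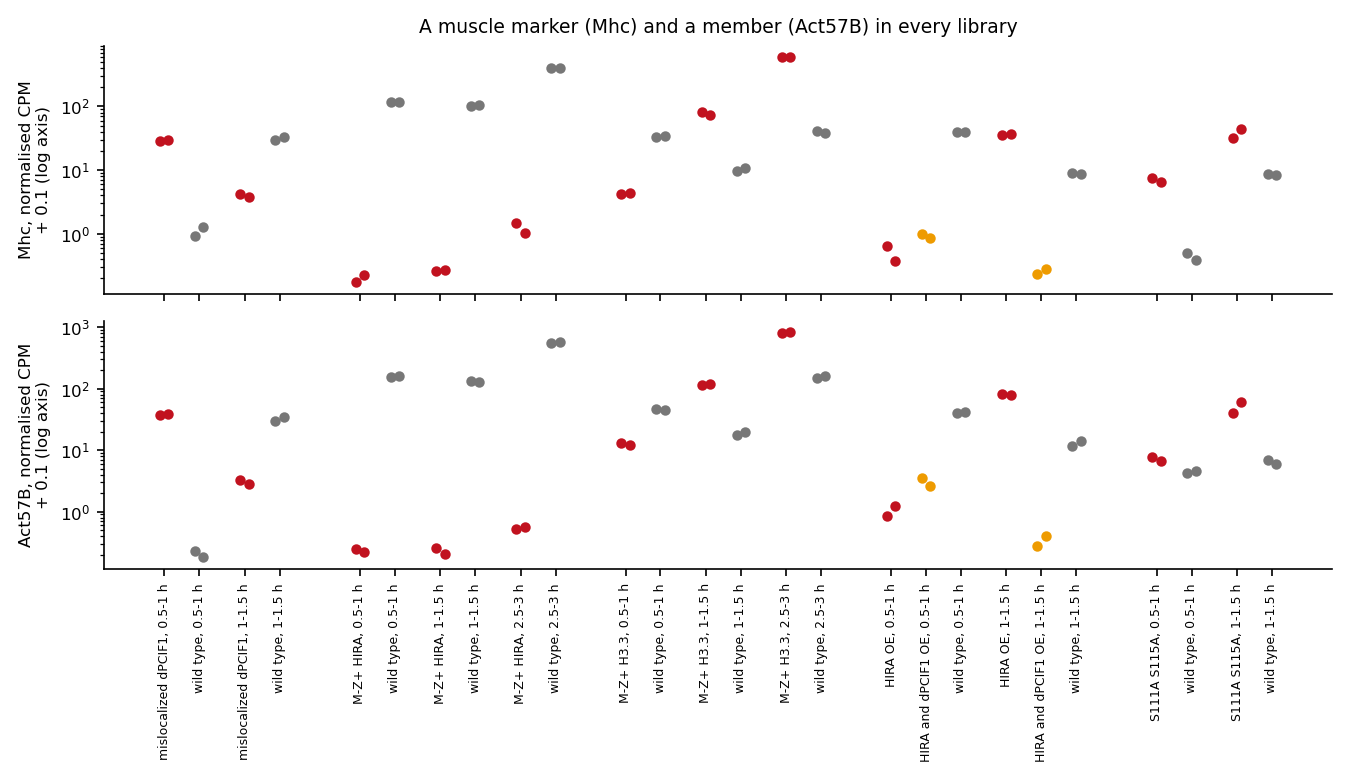
Normalised CPM plus 0.1 (y axes, log scale) of Mhc (upper panel) and Act57B (lower panel) in each library by experiment, genotype and stage (x axis, OE for overexpression), with the mutant or overexpression group left of its wild type. Act57B lies at 36.8 and 39.3 CPM in mislocalized dPCIF1 mutants at 0.5 to 1 h against 0.132 and 0.0803 CPM in wild type, the reverse of 1 to 1.5 h, and Mhc takes the same course.

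Other genes of the same pathways came from lists of genes by role, which were drawn up with earlier results of these data known. On the signalling list 6 of 9 members rose in mislocalized mutants at 1 to 1.5 h, beside 21 of 41 other genes tested (median 1.51), and 5 of 9 fell in HIRA mutants, beside 21 of 42 others tested there (-0.98). emc is the 1 member on the list of patterning transcription factors, where of 51 others 40 rose in mislocalized mutants (2.45), 35 fell in HIRA mutants (-1.72) and 41 rose with HIRA overexpression (1.52). Of the 12 members on the list of cellularization, cytoskeleton and adhesion genes, 6 rose and 1 fell in mislocalized mutants and 6 fell in HIRA mutants, while of 31 others 3 rose (0.26) and 4 fell (-0.05). The 12 were members because they gained in wild type, so this difference is a description. None of 29 genes of pioneer factors and chromatin was a member.

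The members were long genes. Their median span was 10.1 kb and their longest intron 3.27 kb at the median. For 5844 other genes that reached 10 CPM in both wild types these were 2.88 kb and 0.242 kb. With the members, these are not all of the 6094 genes at that level. An intron of at least 5 kb was annotated in 42.6% of members and in 12.7% of the others, and 6.62% and 7.44% had no intron. Within the group, the 26 members of at least 20-fold had a median span of 11.6 kb and the 67 of 3-fold to 5-fold 6.67 kb. By chromosome, 30 members lay on 2L, 31 on 2R, 23 on 3L, 30 on 3R, 3 on chromosome 4 (2.21%, beside 0.786% of the members and these other genes together) and 19 on X (14.0%, beside 17.9%). In 4 cases neighbouring members lay within 5 kb of each other without overlap, namely CG2915 and Sep5 (117 bases apart), Keap1 and kuk (298 bases), Atg101 and bnb (728 bases) and Coop and wech (1012 bases). In the annotation 44 members overlap another gene on the same strand, where counts can be divided between genes, and 62 overlap one on the other strand.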

How the data were processed

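Gene-level files of 52 libraries (26 groups of 2) were analysed. They hold expected counts, which the authors estimated with RSEM and deposited without scaling. They also hold the TPM and FPKM that the authors' RSEM run scaled by transcript length and depth. TPM served here only to compare levels between genes, and FPKM was not used. Per the labels and the study's methods, reads from rRNA-depleted, strand-specific libraries of hand-selected embryos were trimmed with Trimmomatic 0.39, aligned with STAR 2.7.10a to dm6 and counted with RSEM 1.3.1, which divides reads among genes they fit, and the authors used DESeq2 1.40.2 for their own calls. The labels call the molecule polyA RNA.

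Expected counts were rounded (between 94.0% and 97.2% of values per library were whole within 0.005), and low genes were dropped with the filterByExpr function of edgeR (counts of 10 per library and 15 in all). The 5 experiments had separate fits, scaled by TMM and tested by quasi-likelihood in edgeR 4.0.16 (R 4.3.3), and p-values were adjusted by Benjamini-Hochberg over all genes tested. Calls were made at an adjusted p under 0.05 with a log2 fold change beyond 1 in either direction. The SE of a log2 fold change is its size over the root of F. Normalised CPM use TMM library sizes, and plain CPM, used for the rule and shares, do not. With 2 replicates a group, p-values measure only the spread between these libraries. The fits were checked on simulated counts.

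Members, roles and lists were chosen with earlier results of these data known. Genes named are those with the largest called rise or fall in a tested comparison (up to 3 a direction, libraries not overlapping), the 5 most abundant, the 5 with the largest gain, the 2 nearest to each side of both limits, members on the lists of other genes and those called most often, 55 in all. Others (among them roX1, ogre, TBPH, wake and the autophagy and neighbour genes) were named after their values were seen. Alternatives were DESeq2 1.42.0, library sums without TMM, no filter, only the 2 groups compared, a replicate block, each library left out, and other limits of level and gain. The counts without muscle genes, on members above the zygotic markers and with the other wild type were added after seeing the data. All members matched RefSeq by accession, and positions are those of Release 6 (dm6). No sequences are printed.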

Additional observations from a re-analysis of the deposited data

Results flagged for a closer look

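The difference between mutant and wild type was not the same at 0.5 to 1 h and at 1 to 1.5 h for many members, by a test of the stage change in 1 genotype against that of its wild type (edgeR interaction, adjusted p under 0.05). The stage change was larger than in wild type for 119 members in mislocalized dPCIF1 mutants and smaller for 10, beside 26.0% and 40.3% of all genes. It was larger for 33 (24.3%) and smaller for 32 (23.5%) with HIRA overexpression, beside 12.0% and 27.4%, so that the smaller ones lay under the share of all genes. It was larger for 5 and smaller for 66 with co-overexpression, beside 4.17% and 11.8%, and larger for 69 and smaller for 10 in dPCIF1 S111A S115A embryos, beside 10.1% and 10.2%. The wild type of the S111A S115A experiment started from a higher level of the high-gain members at 0.5 to 1 h, as given above.

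A few members were called in opposite directions at the 2 stages. In mislocalized dPCIF1 mutants the log2 fold changes at 1 to 1.5 h less those at 0.5 to 1 h were -11.9 for Act57B, -5.30 for sls, -3.03 for Ppn and -2.71 for Rfabg, all higher than wild type at the first stage and lower at the second. With HIRA overexpression the difference was 8.11 for Act57B, 3.58 for sls and 2.39 for Rfabg, all lower at the first stage and higher at the second. With co-overexpression it was -2.36 for ft. Act57B and sls followed Mhc across libraries, and the part of older embryos in these values was not tested.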

How the results depend on the processing

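Of 7118 called values of single members recomputed under the alternatives, 6934 kept their call (97.4%) and 0 changed sign. DESeq2 kept 773 of 791, and leaving out 1 library kept 3035 of 3164 (95.9%). With a replicate block, 24 members (17.6%) rose in S111A S115A embryos at 1 to 1.5 h instead of 23, and it changed no other count. Residuals of libraries with the same number correlated between -0.164 and 0.182, so the numbers do not pair the libraries. Hsp70Aa with HIRA overexpression at 1 to 1.5 h had a log2 fold change of -2.08 in DESeq2 and lost its call.

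The share of the list called depended most on its limits. With a gain limit of 2-fold (321 genes) and of 5-fold (69 genes), the share called, in the leading direction, became 6.23% and 20.3% for mislocalized dPCIF1 mutants at 0.5 to 1 h (11.8% as reported), 22.4% and 71.0% at 1 to 1.5 h (46.3%), 19.0% and 59.4% for HIRA mutants (36.0%), 10.6% and 47.8% for HIRA overexpression at 0.5 to 1 h (25.0%), 13.1% and 55.1% at 1 to 1.5 h (30.9%), 7.79% and 34.8% for co-overexpression at 0.5 to 1 h (18.4%), 4.36% and 14.5% at 1 to 1.5 h (8.82%), 3.74% and 15.9% for co-overexpression against HIRA overexpression at 0.5 to 1 h (8.82%), 12.5% and 50.7% at 1 to 1.5 h (28.7%), and 7.17% and 30.4% for S111A S115A embryos at 1 to 1.5 h (16.9%). With 2-fold it became 2.18% for H3.3 mutants at 1 to 1.5 h (5.15%) and 2.49% for S111A S115A embryos at 0.5 to 1 h (5.88%). Without members that follow Mhc it was 3.01% for H3.3 mutants.

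For the change from 0.5 to 1 h to 1 to 1.5 h, the gain limits of 2-fold and 5-fold gave 23.1% and 85.5% in mislocalized mutants (54.4%), 12.1% and 52.2% in their wild type (27.9%), 6.85% and 26.1% with HIRA overexpression (16.2%), 9.03% and 42.0% in the wild type of that experiment (21.3%), 11.8% and 40.6% in S111A S115A embryos (24.3%) and 5.61% and 17.4% in H3.3 mutants (11.03%). With 2-fold it gave 0.935% lower for co-overexpression (2.21%) and 0.935% higher for the wild type of the S111A S115A experiment (2.21%). In HIRA mutants, the share that fell (7.35%) was 11.6% with 5-fold and 4.41% with library sums.

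With level limits of 5 CPM (214 genes) and 20 CPM (93 genes), the share became 22.9% and 7.53% for mislocalized mutants at 0.5 to 1 h, 39.2% and 10.8% for HIRA overexpression at 0.5 to 1 h, 46.7% and 16.1% at 1 to 1.5 h, 14.95% and 3.23% for co-overexpression against HIRA at 0.5 to 1 h, 43.9% and 12.9% for the stage change of the wild type of the dPCIF1 experiment, 32.2% and 7.53% for that of the overexpression experiment and 4.21% and 1.08% for that of the S111A S115A experiment. With 5 CPM it was 10.3% for S111A S115A embryos at 0.5 to 1 h. With 20 CPM it was 23.7% for HIRA mutants, 8.60% for co-overexpression at 0.5 to 1 h, 5.38% at 1 to 1.5 h, 16.1% against HIRA overexpression at 1 to 1.5 h, 8.60% for S111A S115A embryos at 1 to 1.5 h, 11.8% for their stage change and 3.23% for that of HIRA mutants. Among the 103 members above the zygotic markers alone it was 6.80% for mislocalized mutants at 0.5 to 1 h and 30.1% at 1 to 1.5 h, 19.4% for HIRA mutants, 5.83% and 11.7% for HIRA overexpression, 3.88% for co-overexpression at 0.5 to 1 h, and 2.91% and 9.71% for S111A S115A embryos.

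With 1 library left out in turn, the share ran from 10.3% to 21.3% for S111A S115A embryos at 1 to 1.5 h and from 3.68% to 9.56% for the members that fell between the first 2 stages in HIRA mutants, where the low values came without S111A S115A replicate 2 at 1 to 1.5 h and without HIRA mutant replicate 2 at 0.5 to 1 h. A group with 1 library left is assumed to vary like the others. The cause of these changes was not tested.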
